A study of Mus musculus with 96 samples.

Results

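The genes followed here are those of DNA replication licensing: *Mcm2*, *Mcm3*, *Mcm4*, *Mcm5*, *Mcm6*, *Mcm7*, *Cdc6*, *Cdt1*, *Gmnn* and *Cdc45*. They were listed by name, with earlier results of these data known, and are 10 of the 36935 gene symbols in the deposited count table. The table holds 96 single-cell RNA libraries from mice: 44 labelled as metaphase II (MII) oocytes, 44 labelled as cells of 2-cell embryos and 8 labelled as negative controls. Wild-type cells were labelled Padi6+/+. Mutant oocytes were labelled Padi6P620A/P620A, and mutant 2-cell embryos Padi6MatP620A/+, with the P620A allele coming from the mother. *Padi6* encodes a peptidylarginine deiminase family protein of the egg cytoplasm, and a gene count cannot show the substitution. Females were 4 to 8 weeks old and males 8 to 12 weeks. Superovulation with PMSG and hCG was used throughout, females were killed about 13 hours after hCG, cumulus cells were taken off with hyaluronidase, and the embryos were made by in vitro fertilisation. Embryos were taken apart into single blastomeres, without the polar body. The labels name no animal or embryo, so blastomeres of 1 embryo may be among the libraries.

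Licensing is the step that allows each stretch of DNA to be copied once per cell cycle. The origin recognition complex, CDC6 and CDT1 load the ring of 6 MCM subunits onto DNA in an inactive form. Geminin, the product of *Gmnn*, binds CDT1 and blocks further loading once DNA synthesis has begun, and CDC45 with the GINS complex turns the loaded ring into the active helicase. An MII oocyte is arrested in the second meiotic division and copies no DNA until it is fertilised. The embryo then starts from transcripts and proteins stored by the mother, and it starts its own main wave of transcription at the 2-cell stage.

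The libraries were grouped by their own RNA and not by their stage labels, since these did not match. Of the 96 libraries, 79 reached both limits set on depth, 100000 counts in all and 4000 genes detected. *Mos*, the kinase that holds the egg in metaphase, was at 100 CPM (counts of the gene divided by all counts of the library and multiplied by 1000000) or more in 39 libraries, called Mos-high below. These were 12 libraries labelled wild-type oocyte, 14 labelled wild-type 2-cell, 9 labelled mutant 2-cell and 4 labelled negative control. Another 39 libraries, called Mos-low below, had *Mos* under 100 CPM and at least 1 count of *Zfp352*, a gene of the 2-cell burst of transcription. These were 19 libraries labelled mutant oocyte, 7 labelled wild-type oocyte, 11 labelled mutant 2-cell and 2 labelled negative control. No library labelled wild-type 2-cell was Mos-low, and no library labelled mutant oocyte was Mos-high. *Mos* and *Zfp352* set the classes, so their levels are no finding. The summed level of 6 2-cell burst genes, *Zfp352* among them, was 32.2 to 2727 CPM in Mos-low libraries and 0 to 11.1 CPM in Mos-high libraries.

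Mos-high libraries had a median of 3235840 counts and 13671 genes, and Mos-low libraries 1608300 counts and 10370 genes. Markers of cumulus and granulosa cells, which surround the egg, moved with the classes. The 17 markers summed to 3.59 to 11114 CPM in Mos-high libraries (median 342) and to 0 to 139 CPM in Mos-low libraries (median 13.9). In the pools, 13 of the 17 were at 10 CPM or more in Mos-high libraries and 0 in Mos-low libraries, where *Ptx3*, *Thbs1* and *Hsd17b1* had no count. The part of these cells in the results was not tested. Ratios and counts of the licensing genes, the 2 within-library shares and the ratios of the named pathway genes were computed again without the 11 Mos-high libraries in which the markers exceeded 0.1% of counts; the other results were not. Each library with an oocyte or 2-cell label is 1 cell, while the label of the 6 kept negative controls names no cell. No animal is named, so each class counts as 1 sample and no test was made. Ratios below are ratios of pooled CPM, with exact 95% intervals that cover counting error only; the reads carry no molecular identifiers and are not independent molecules. CPM is relative to all RNA captured, so a change in a gene cannot be told apart from an opposite change in the other RNA. It does not give transcripts per cell.

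The 10 genes did not move as a block. Between the classes, *Gmnn* and *Mcm5* were at least 2-fold higher in Mos-low libraries, and *Mcm4* and *Mcm7* at least 2-fold lower. That is 2 of 10 higher beside 20.9% of all 9677 genes tested, and 2 of 10 lower beside 27.8% of all genes, so neither share stands far from the background. The median log2 ratio of the 10 was -0.03, and that of all genes was -0.08. All 10 passed the level filter of 10 CPM in a class with a count in at least 50% of its libraries. None had classes that did not overlap at all, beside 0.145% of genes wholly higher and 0.289% wholly lower.

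**Figure D1:**
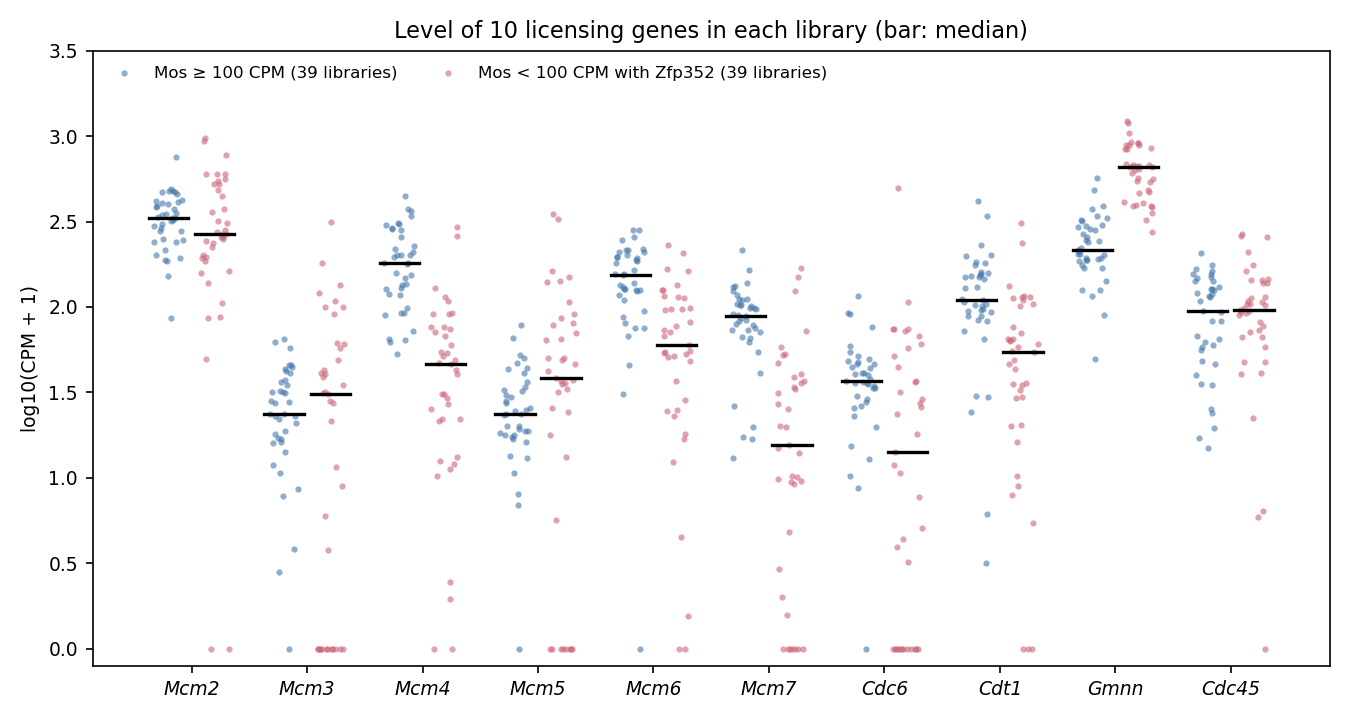
Level of each licensing gene in each of the 78 libraries, as log10(CPM + 1), with Mos-high libraries in blue and Mos-low libraries in red; black bars are medians. *Gmnn* lies higher and *Mcm4*, *Mcm6* and *Mcm7* lie lower in Mos-low libraries, where 12 libraries have no count of *Mcm3* and 12 have none of *Cdc6*.

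Transcription of many licensing genes is driven by E2F factors in dividing somatic cells. The stretches before the start sites of *Mcm5*, *Mcm6* and *Mcm7* are shown because these 3 subunit genes carry such letters upstream of the start and lie on different sides of the class comparison, *Mcm5* higher and *Mcm6* and *Mcm7* lower in Mos-low libraries. Each is 180 bases long and ends at the base before the RefSeq start (build GRCm38.p6; the counts were made on GRCm39), read 5′ to 3′ in the direction of the gene. Capitals mark TTTCCCGC, TTTGGCGC, TTTCGCGC or TTTGCCGC, the motifs searched, on either strand, with overlapping matches in 1 run. *Mcm5* is on the plus strand at chr8:75109329-75109508, *Mcm6* on the minus strand at chr1:128359706-128359885, and *Mcm7*, at the first of its 2 windows, on the minus strand at chr5:138171884-138172063.
Mcm5: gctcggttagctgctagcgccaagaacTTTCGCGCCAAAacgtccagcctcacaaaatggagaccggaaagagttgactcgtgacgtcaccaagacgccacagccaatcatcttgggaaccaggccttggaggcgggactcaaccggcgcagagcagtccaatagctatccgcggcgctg
Mcm6: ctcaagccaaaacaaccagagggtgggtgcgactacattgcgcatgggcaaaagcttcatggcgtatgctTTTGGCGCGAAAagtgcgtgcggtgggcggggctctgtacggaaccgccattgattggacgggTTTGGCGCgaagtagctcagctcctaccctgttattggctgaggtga
Mcm7: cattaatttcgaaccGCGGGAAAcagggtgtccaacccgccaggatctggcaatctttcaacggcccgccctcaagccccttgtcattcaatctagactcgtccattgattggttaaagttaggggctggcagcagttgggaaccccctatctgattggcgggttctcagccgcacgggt

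In *Mcm5* the run starts 153 bases before the start and holds TTTCGCGC overlapping the reverse of TTTGGCGC. *Mcm6* has an overlapping pair that starts 110 bases before the start and a further TTTGGCGC at 47 bases. *Mcm7* has the reverse of TTTCCCGC at 165 bases and TTTCGCGC 16 bases after the start. Over the whole windows of 250 bases before to 50 after the start, 6 of the 8 licensing genes with a RefSeq window held a motif: these 3, *Mcm3*, *Cdc6* and *Cdt1*. *Mcm2* and *Cdc45* held none, and no window was read for *Mcm4* and *Gmnn*. Counted the same way, 2.6% of all 27025 genes with a window held one. By window it was 2.26% of 32851 promoter windows. A match describes the letters and is no evidence of binding, and genes with the motif were found on both sides of the class comparison.

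*Mcm4*, a core subunit of the helicase, was at 52.3 to 446 CPM in Mos-high libraries (median 179) and at 0 to 293 CPM in Mos-low libraries (median 45.2). Of the 39 Mos-low libraries, 23 lay below the lowest Mos-high library and 2 lay above the Mos-high median. Pooled, its level was 176 against 56.1 CPM, 3.14-fold lower in Mos-low libraries (interval 3.03 to 3.26). *Mcm7*, the subunit next to MCM4 in the ring, was at 12.0 to 215 CPM in Mos-high libraries (median 87.8) and at 0 to 168 CPM in Mos-low libraries (median 14.5). The classes overlapped, with 17 Mos-low libraries below every Mos-high library. The pooled level was 78.5 against 27.4 CPM, 2.87-fold lower (2.72 to 3.02). *Mcm7* overlaps *Ap4m1* and the small RNAs *Mir106b*, *Mir25* and *Mir93* in the RefSeq annotation, and *Prkdc* starts within 1 kb of *Mcm4*. No strand-specific counting is stated, so reads from overlapping genes cannot be told apart.

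*Mcm6*, which pairs with MCM4 and MCM2 in the ring, went the same way and lay near the 2-fold line. It was at 0 to 283 CPM in Mos-high libraries (median 152) and at 0 to 230 CPM in Mos-low libraries (median 59.1). Only 4 Mos-low libraries lay above the Mos-high median. Pooled, its level was 145 against 78.5 CPM, 1.84-fold lower (1.78 to 1.90), and 2.05-fold lower without the library labelled mutant oocyte 43. *Mcm6* was past 2-fold in 6 of 13 other settings, at 2.14-fold with TMM scaling, 2.01-fold with DESeq2 size factors and 2.08-fold with library means. As a ratio of library medians with 1 CPM added, *Mcm6* was 2.55-fold and *Mcm7* 5.72-fold lower.

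*Mcm5* and *Mcm3*, subunits of the other side of the ring, were low genes in Mos-high libraries. *Mcm5* was at 0 to 77.0 CPM there (median 22.7) and at 0 to 350 CPM in Mos-low libraries (median 37.6). Of the Mos-low libraries, 11 lay above every Mos-high library, 28 lay above the Mos-high median, and 8 had no count. Pooled, *Mcm5* was at 28.3 against 56.9 CPM, 2.01-fold higher in Mos-low libraries (1.92 to 2.11). This sits at the 2-fold line: leaving out any of 28 of the 78 libraries took it below, with the lowest ratio, 1.79, without the library labelled mutant 2-cell 79. Without the libraries rich in cumulus markers it was also under 2-fold.

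*Mcm3* was at 0 to 64.3 CPM in Mos-high libraries (median 22.6) and at 0 to 314 CPM in Mos-low libraries (median 30.1). Here 8 Mos-low libraries exceeded every Mos-high library while 12 had no count, against 1 without a count among the Mos-high. The pooled ratio was 1.54 (1.46 to 1.62). *Mcm2*, the subunit that also carries histones at the fork, had the highest median level per length of the 6 subunits in both classes. It was at 85.2 to 751 CPM in Mos-high libraries (median 331) and at 0 to 975 CPM in Mos-low libraries (median 266). The pools gave 326 against 361 CPM, a ratio of 1.10 (1.09 to 1.12), while the medians went the other way, so no direction is given for *Mcm2*.

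**Figure D2:**
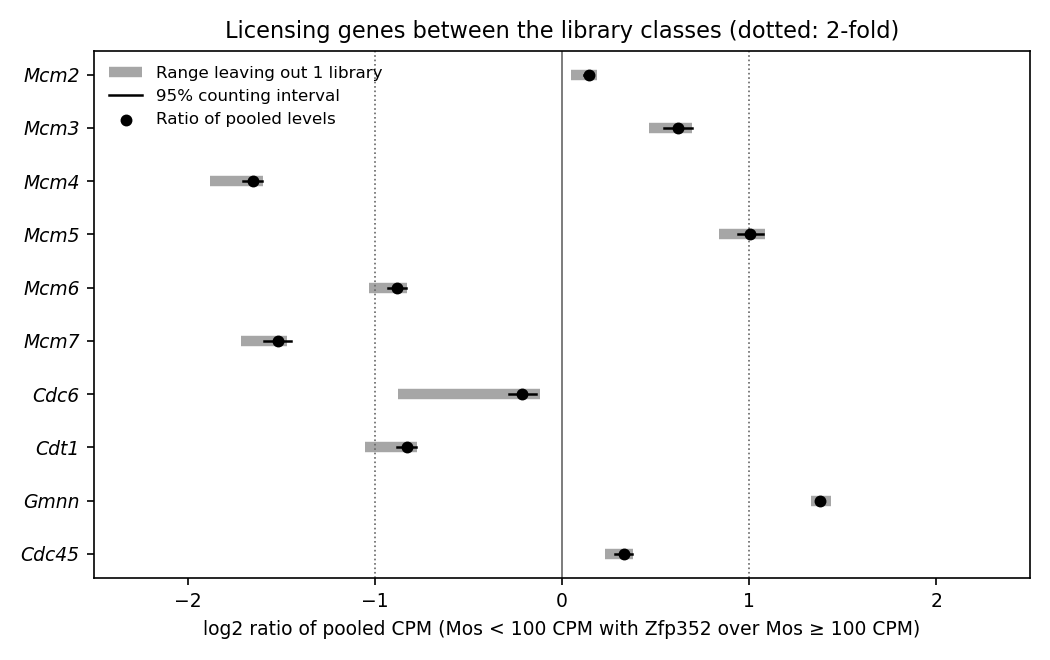
Ratio of pooled CPM in Mos-low over Mos-high libraries for each licensing gene on a log2 axis, with the 95% counting interval (black line) and the range of the ratio when 1 of the 78 libraries is left out (grey bar). *Gmnn*, *Mcm4* and *Mcm7* stay past the dotted 2-fold lines, the bars of *Mcm5*, *Mcm6* and *Cdt1* cross one, and *Cdc6* moves most.

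The MCM genes were also described by their sum and by their makeup within each library. The summed level of the 6 subunits was 343 to 1409 CPM in Mos-high libraries (median 798) and 250 to 1233 CPM in Mos-low libraries (median 533). Pooled, the sum was 1.26-fold lower in Mos-low libraries (1.24 to 1.27). *Mcm4*, *Mcm6* and *Mcm7* encode the subunits that also form a stable subcomplex with helicase activity in vitro; their joint share was looked at after these 3 had been seen to be the lower subunits, so its direction follows from the choice and the values are a description. They made up 24.7 to 65.3% of the MCM counts of a Mos-high library (median 53.8%) and 5.52 to 100% of those of a Mos-low library (median 25.8%). Of the 39 Mos-low libraries, 37 lay below the Mos-high median and 18 below the lowest Mos-high library, while 2 lay above the highest. The 100% was in the library labelled mutant 2-cell 74, which had 6063 genes detected. The pooled share was 51.2% against 26.1%, and leaving out any 1 library kept the Mos-low value between 24.5 and 27.2%. Without the 11 libraries rich in cumulus markers the Mos-high value was 50.0%. This share is formed within a library and does not depend on how libraries are scaled.

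The same share was read within the 2 label groups that held both RNA classes with 7 or more libraries each. Among libraries labelled wild-type oocyte its median was 52.1% in the 12 Mos-high and 19.7% in the 7 Mos-low libraries. Among libraries labelled mutant 2-cell it was 53.8% in the 9 Mos-high and 33.2% in the 11 Mos-low libraries. The ranges overlapped in both: 33.0 to 64.8% against 14.3 to 41.1% for the first, and 24.7 to 64.9% against 9.65 to 100% for the second.

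*Gmnn*, the inhibitor of licensing, had the lowest coefficient of variation of the 10 in Mos-low libraries, at 36.2%; in Mos-high libraries it was 42.7%, above the 36.2% of *Mcm2*. It was detected in all 78 libraries, at 48.8 to 571 CPM in Mos-high libraries (median 214) and at 275 to 1230 CPM in Mos-low libraries (median 659). Every Mos-low library lay above the Mos-high median, and 23 lay above the highest Mos-high library. Pooled, it was at 250 against 651 CPM, 2.60-fold higher in Mos-low libraries (2.56 to 2.64), and leaving out any 1 library kept this between 2.52 and 2.71.

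*Cdt1*, the loading factor that geminin blocks, lay on the other side. It was at 2.18 to 418 CPM in Mos-high libraries (median 109) and at 0 to 310 CPM in Mos-low libraries (median 53.4), with 7 Mos-low libraries above the Mos-high median. Pooled, it was at 122 against 68.7 CPM, 1.78-fold lower (1.72 to 1.84), and 2.07-fold lower without the library labelled mutant oocyte 31. It was past 2-fold in 5 of 13 other settings, among them TMM scaling (2.07-fold) and leaving out the libraries rich in cumulus markers (a ratio of 0.477). Within libraries, *Gmnn* made up 30.6 to 98.9% of the joint counts of *Gmnn* and *Cdt1* in Mos-high libraries (median 65.0%) and 53.8 to 100% in Mos-low libraries (median 91.9%). In 38 of the 39 Mos-low libraries this share was above the Mos-high median. The pooled share was 67.2% against 90.4%, and without the libraries rich in cumulus markers 65.6% against 90.4%. Among libraries labelled wild-type oocyte the median was 69.7% in the Mos-high and 95.5% in the Mos-low libraries, and among those labelled mutant 2-cell 64.7% and 90.1%. This share, too, was formed with the single values known, and is a description.

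**Figure D3:**
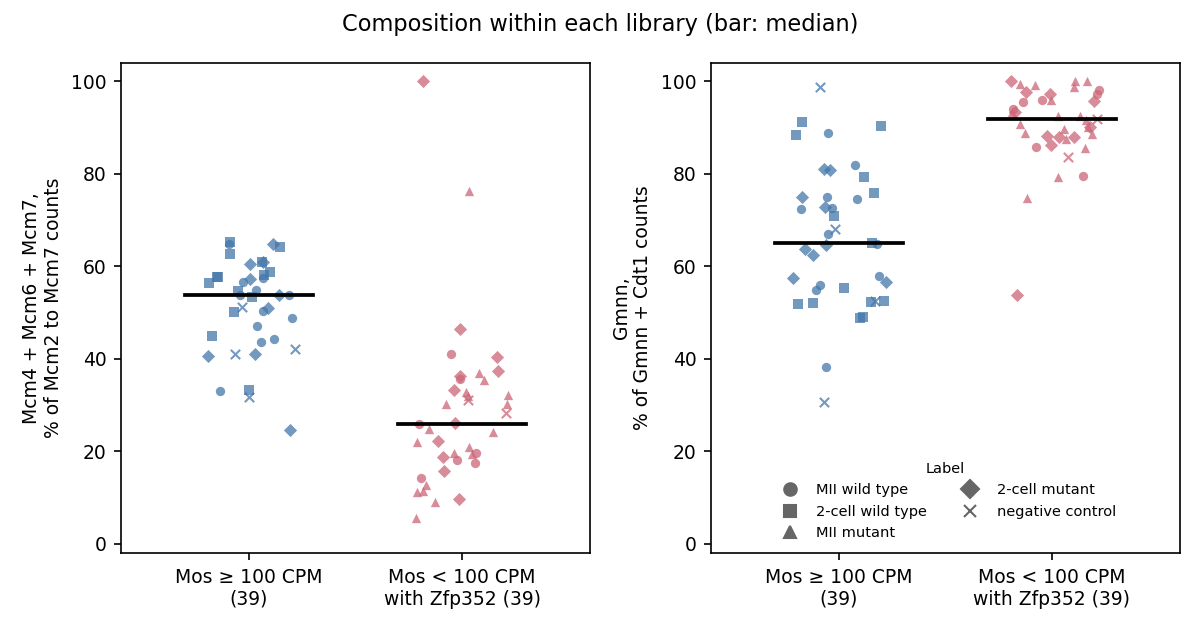
Share of *Mcm4*, *Mcm6* and *Mcm7* in the counts of the 6 MCM genes (left) and share of *Gmnn* in the counts of *Gmnn* and *Cdt1* (right), in percent, for each library; marker shapes give the label, colours the RNA class, black bars the medians. The medians are 53.8% and 25.8% on the left and 65.0% and 91.9% on the right, with overlap on both sides.

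*Cdc6*, the ATPase that recruits CDT1 and the MCM ring to origins, rested on a single library. It was at 0 to 115 CPM in Mos-high libraries (median 35.6) and at 0 to 499 CPM in Mos-low libraries (median 13.2). The Mos-low class held 12 libraries without a count and also the highest value of all, in the library labelled mutant oocyte 41, the only one above every Mos-high library. That library had 4328 genes detected, the fewest of the Mos-low class, whose median was 10370. Pooled, *Cdc6* was at 42.1 against 36.4 CPM, 1.16-fold lower in Mos-low libraries (1.10 to 1.22), and 1.83-fold lower without that library. As a ratio of library medians with 1 CPM added it was 2.58-fold lower. *Cdc45*, the activator of the loaded helicase, differed little. It was at 14.0 to 207 CPM in Mos-high libraries (median 93.5) and at 0 to 266 CPM in Mos-low libraries (median 95.2), with 21 Mos-low libraries above the Mos-high median. The pooled ratio was 1.26 (1.22 to 1.30). *Cdc45* overlaps *Ufd1* and *Gm52240* in the RefSeq annotation.

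Levels of different genes were compared per kilobase of their longest coding transcript. In Mos-high libraries the median level was 190 CPM per kb for *Gmnn*, 98.3 for *Mcm2*, 50.0 for *Mcm4*, 49.8 for *Cdt1*, 43.6 for *Cdc45*, 34.9 for *Mcm6*, 29.6 for *Mcm7*, 7.72 for *Cdc6*, 7.44 for *Mcm3* and 6.72 for *Mcm5*. By their quartiles *Gmnn* was clear of *Mcm2*, and *Mcm7* (lower quartile 23.1) was clear of *Cdc6* (upper quartile 10.0). From *Mcm2* to *Mcm7*, and from *Cdc6* to *Mcm5*, neighbours overlapped. In Mos-low libraries *Gmnn* was at 585 CPM per kb, *Mcm2* at 78.9, *Cdc45* at 44.4, *Cdt1* at 24.4, *Mcm6* at 13.6, *Mcm4* at 12.6, *Mcm5* at 11.1, *Mcm3* at 9.93, *Mcm7* at 4.90 and *Cdc6* at 2.85. There *Gmnn* alone was clear of its neighbour. *Mcm4* moved from the third place to the sixth, and *Mcm5* from the last place to the seventh.

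For 9 of the 10 genes the coefficient of variation over libraries was higher in Mos-low libraries, and for *Gmnn* it was lower. It was 36.2% for *Mcm2* to 63.2% for *Cdt1* in Mos-high libraries, and, leaving *Gmnn* aside, 62.9% for *Cdc45* to 219% for *Cdc6* in Mos-low libraries. To compare detection at a shared depth, each library was thinned to 100000 counts, which left a median of 8541 genes in Mos-high and 7549 in Mos-low libraries. *Mcm7* then had a count in 39 of 39 Mos-high libraries (100%, exact interval 91.0 to 100%) and in 20 of 39 Mos-low libraries (51.3%, 34.8 to 67.6%). Before thinning it had a count in 39 and 32. *Cdc6* had a thinned count in 35 against 22 libraries, *Mcm3* in 31 against 24, and *Gmnn* in 39 of 39 in both classes. Detection at a fixed depth also follows the level, so it adds no separate measure of spread.

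The levels of the MCM genes were compared in pairs within each class. In Mos-high libraries Spearman's rho between pairs of MCM genes over the 39 libraries had a median of 0.27 over the 15 pairs. Over all 45 member pairs it was 0.25. Pairs of other genes were not read, so these values cannot be called particular to the MCM genes. The highest values among all member pairs were 0.71 for *Mcm4* with *Cdc45*, 0.69 for *Mcm4* with *Mcm6* and 0.67 for *Mcm6* with *Cdc45*, and the lowest was -0.39, for *Mcm6* with *Gmnn*. In the 39 Mos-low libraries the median over the 15 pairs was 0.03 and the highest value was 0.32. Depth and cumulus RNA moved with some of the genes in Mos-high libraries: rho with the library's counts was -0.48 for *Mcm7* and -0.40 for *Mcm4*, and rho with the cumulus share was -0.51 for *Cdc6* and -0.48 for *Gmnn*. Their part in the pairs was not tested. These are descriptions over cells that share their libraries' depth, with no test.

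Over all 78 libraries and 6932 well-measured genes, the genes most alike in level to the summed MCM genes by Spearman's rho were *Fpgs* (0.77), *Rae1* (0.74), *Cdc20* (0.73), *Ptpn21* (0.73) and *D6Ertd527e* (0.69). FPGS keeps folates in the cell, and CDC20 activates the anaphase-promoting complex, the ligase that also marks geminin for destruction. All 5 were lower in the Mos-low pool, from 1.22-fold for *Cdc20* to 3.06-fold for *D6Ertd527e*, beside the 1.26-fold of the MCM sum. They were picked for following that sum over both classes together, so this direction largely follows from the choice.

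The other genes of replication were read from 6 lists of the pathway. The counts stand beside 20.9% of all genes higher and 27.8% lower, and the medians beside the all-gene median log2 ratio of -0.08. Of the 6 subunits of the origin recognition complex, which marks the sites where the MCM ring is loaded, 1 was at least 2-fold higher in Mos-low libraries, 2 were lower and 3 were neither, with a median log2 ratio of -0.75. *Orc2* was at 40.9 against 131 CPM (3.20-fold higher, 3.08 to 3.31), *Orc3* at 66.3 against 10.5 CPM (6.30-fold lower, 5.82 to 6.82), and *Orc5* at 642 against 277 CPM (2.32-fold lower, 2.29 to 2.36). Among the relatives and partners of the MCM and geminin proteins, 4 of 7 passed the level filter, with 0 higher and 1 lower (median -0.76). That one was *Mcm10*, a fork protein that helps the helicase start, at 202 against 76.0 CPM (2.67-fold lower).

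Of 15 origin firing genes, 3 were higher, 5 lower and 7 neither (median -0.22). *Gins3* and *Gins4* encode subunits of the same GINS complex and lay on opposite sides. *Gins3* was at 26.9 against 0.740 CPM, 36.4-fold lower (27.4 to 49.5), and *Gins4* at 28.9 against 79.1 CPM, 2.74-fold higher (2.62 to 2.86). *Recql4*, a helicase of origin firing, was at 0.438 against 24.6 CPM, 56.3-fold higher (42.4 to 76.4). It was only 27.5-fold higher without the library labelled mutant oocyte 31, which had 6627 genes detected. The Mos-low median of *Recql4* was 1.23 CPM. *Cdc7*, the kinase that phosphorylates the loaded MCM ring, was 4.08-fold lower, at 42.5 against 10.4 CPM.

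Of 14 genes that control licensing, 3 were higher, 2 lower and 9 neither (median -0.16). *Ccne1*, the cyclin of entry into DNA synthesis, was at 14.3 against 112 CPM (7.83-fold higher, 7.42 to 8.27), and *Cdk1*, the mitotic kinase, at 20.2 against 72.9 CPM (3.60-fold higher). *Cul4a*, a scaffold of a ligase that degrades CDT1, was at 32.9 against 3.10 CPM (10.6-fold lower, 9.20 to 12.3). *Cul4b*, in the same list, went the other way, at 197 against 377 CPM (1.92-fold higher, 1.88 to 1.95), and was under the 2-fold line. *Fbxo5*, an inhibitor of the anaphase-promoting complex, was at 115 against 33.4 CPM (3.44-fold lower).

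Of 29 replication fork genes 26 passed the filter, with 7 higher, 4 lower and 15 neither (median 0.06). *Rpa2*, a subunit of the single-strand binding protein, was 4.66-fold higher (13.7 against 63.8 CPM) and *Chaf1b*, of the chromatin assembly factor, 3.64-fold higher (5.60 against 20.4 CPM). *Prim2*, of primase, was 3.26-fold lower (50.7 against 15.6 CPM). *Pole*, the catalytic subunit of DNA polymerase epsilon, was 6.49-fold lower (21.2 against 3.27 CPM), and 11.0-fold lower without the library labelled mutant oocyte 40. Of 13 E2F and pocket protein genes 9 passed, with 2 higher, 2 lower and 5 neither (median 0.25). *E2f4* was 2.47-fold and *E2f1* 2.08-fold higher, and *Rbl2* was 2.35-fold and *Tfdp2* 2.03-fold lower. *E2f1* went under 2-fold without the library labelled mutant 2-cell 74 or the library labelled mutant oocyte 41, without the libraries rich in cumulus markers, and under both other scalings of library size. *Tfdp2* went under 2-fold without any of 8 single libraries. As ratios of library medians with 1 CPM added, *E2f4*, *E2f1* and *Tfdp2* were under 2-fold, *Recql4* was 2.23-fold, *Rpa2* 2.71-fold and *Chaf1b* 2.33-fold higher, and *Cul4a* was 35.2-fold, *Cdc7* 33.0-fold, *Gins3* 22.7-fold, *Rbl2* 19.4-fold, *Pole* 19.2-fold and *Prim2* 7.96-fold lower. The Mos-low median was 0 CPM for *Cul4a*, *Gins3*, *Rbl2* and *Pole* and 0.462 CPM for *Cdc7*. The size of their median folds is thus largely set by the added 1 CPM. Each list held genes on both sides of 2-fold except the MCM relatives and partners, which held none past 2-fold on the higher side.

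**Figure D4:**
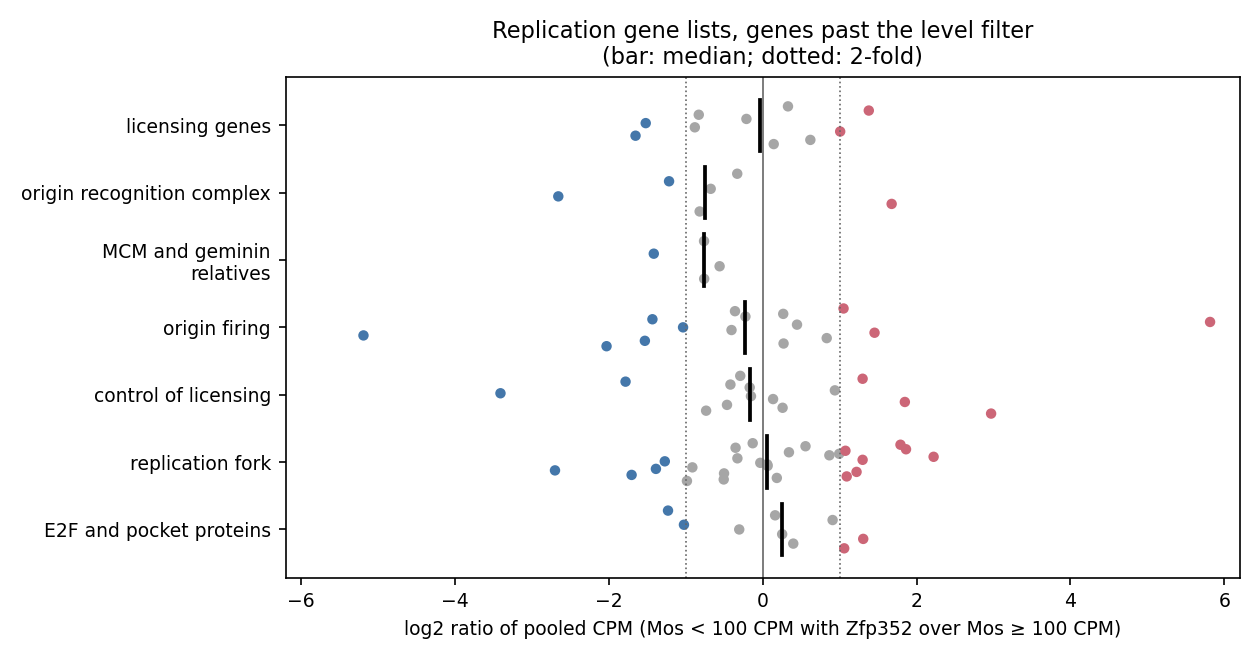
Log2 ratio of pooled CPM, Mos-low over Mos-high libraries, for each gene of the licensing list and of 6 further replication lists that passed the level filter; red is at least 2-fold higher, blue at least 2-fold lower, grey neither, and black bars are list medians. Medians run from -0.76 to 0.25 and 5 of the 6 further lists have genes past both dotted lines.

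The study's own comparison is mutant against wild type within a stage label. The genotype comes from the same labels as the stage, which did not match the RNA, and no count could check it, so all ratios between genotypes below hold only as far as the labels are right. By the oocyte label (19 mutant and 19 wild-type libraries), 0 of the 10 genes were at least 2-fold higher in mutant libraries, beside 16.8% of 9122 genes, and 2 were lower, beside 22.7%. *Mcm7* was at 0 to 137 CPM in wild-type libraries (median 66.1) and at 0 to 71.4 CPM in mutant libraries (median 14.5). Its pooled level was 69.9 against 18.9 CPM, 3.70-fold lower in mutant libraries (3.41 to 4.03). *Mcm4* was at 11.1 to 340 CPM in wild-type libraries (median 91.5) and at 0 to 293 CPM in mutant libraries (median 41.6). It was 2.12-fold lower (2.02 to 2.22), and under 2-fold when any of 5 libraries was left out. All 19 mutant libraries of this comparison were Mos-low, against 7 of the 19 wild-type ones, so genotype label and RNA class cannot be told apart in it. *Cdc6* stood at a ratio of 1.09, and at 0.445 without the library labelled mutant oocyte 41. *Cdt1* was 1.77-fold lower, and at a ratio of 0.414 without the library labelled mutant oocyte 31.

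By the 2-cell label (21 mutant and 14 wild-type libraries), 2 of the 10 were higher in mutant libraries, beside 7.88% of 9996 genes, and 0 were lower, beside 11.8%. *Gmnn* was at 48.8 to 340 CPM in wild-type libraries (median 191) and at 94.8 to 1230 CPM in mutant libraries (median 388). Of the mutant libraries, 11 lay above every wild-type one. Pooled, it was 2.07-fold higher (2.01 to 2.13), and 1.88-fold without the library labelled wild-type 2-cell 61. *Mcm5* was at 12.4 to 65.2 CPM in wild-type libraries (median 22.5) and at 0 to 350 CPM in mutant libraries (median 36.2), 2.04-fold higher in the pool (1.90 to 2.20) and 1.66-fold without the library labelled mutant 2-cell 79. Neither stayed past 2-fold with TMM scaling, at 1.91 for *Gmnn* and 1.88 for *Mcm5*. Without the libraries rich in cumulus markers *Gmnn* was at 1.91 and *Mcm5* at 2.29. Of all genes called in this comparison, 40.0% were higher in mutant libraries, 15.9% by library medians and 67.3% without the libraries rich in cumulus markers. All 14 wild-type libraries were Mos-high, against 9 of the 21 mutant ones. Of the other mutant libraries, 11 were Mos-low and 1, labelled mutant 2-cell 86, was in neither class. That library gave the lowest mutant value of *Gmnn*, 94.8 CPM.

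Within an RNA class, none of the 10 genes differed 2-fold between genotype labels when the 2 stage labels were pooled. By library medians 4 did so in Mos-low libraries. In Mos-high libraries (9 mutant and 26 wild-type labels), 0 were higher, beside 0.429% of 9093 genes, and 0 lower, beside 15.8%. That background depends on the libraries rich in cumulus markers: without them 67 of 8030 genes were higher and 228 lower, in place of 39 and 1437 of 9093. The ratios ran from 0.74 (0.67 to 0.81) for *Mcm3* to 1.27 (1.19 to 1.36) for *Cdc6*. *Gmnn* was at 247 CPM in the wild-type and 258 CPM in the mutant pool, a ratio of 1.05 (1.02 to 1.08), *Mcm4* at a ratio of 0.95 (0.92 to 0.99) and *Mcm7* at 0.85 (0.80 to 0.89). All of these mutant labels were 2-cell labels, whereas 12 of the wild-type labels were oocyte labels. The 2 wild-type labels lay apart for some genes, so the pooled ratios average over them. Pooled by label, *Gmnn* was at 303 CPM in wild-type oocyte, 191 in wild-type 2-cell and 258 in mutant 2-cell libraries. In the same order, *Cdt1* was at 145, 89.7 and 128 CPM, *Cdc6* at 41.9, 31.7 and 46.8 CPM, and *Mcm4* at 156, 198 and 169 CPM.

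In Mos-low libraries (30 mutant and 7 wild-type labels), 0 were higher, beside 18.6% of 8549 genes, and 0 lower, beside 6.32%. The mutant labels were 19 oocyte labels and 11 2-cell labels, whereas all 7 wild-type labels were oocyte labels. The mutant 2-cell labels thus had no wild-type counterpart in this class. The ratios ran from 0.64 (0.58 to 0.70) for *Mcm3* to 1.48 (1.31 to 1.67) for *Cdc6*. The 2 mutant labels lay apart for some genes. Pooled by label, *Mcm3* was at 57.6 CPM in wild-type oocyte, 27.6 in mutant oocyte and 59.8 in mutant 2-cell libraries. In the same order, *Mcm5* was at 66.0, 35.8 and 110 CPM. *Gmnn* was at 390 to 1049 CPM in wild-type libraries (median 661) and at 275 to 1230 CPM in mutant libraries (median 649), a ratio of 0.93 (0.90 to 0.95). *Mcm4* was at a ratio of 1.07 (0.98 to 1.17) and *Mcm7* at 1.44 (1.25 to 1.67). Pooled *Mcm7* was at 18.4 CPM in wild-type oocyte, 18.9 in mutant oocyte and 45.8 in mutant 2-cell libraries. With 7 wild-type libraries, single ones weighed heavily: *Mcm7* was at 2.46 without the library labelled wild-type oocyte 4 and at 2.08 without wild-type oocyte 3. *Cdc6* was at 2.13 without wild-type oocyte 3 and at 0.819 without the library labelled mutant oocyte 41. As ratios of library medians with 1 CPM added, *Mcm7* was 8.79-fold higher in mutant libraries, and *Mcm3* was 2.35-fold, *Cdc6* 2.31-fold and *Mcm5* 2.22-fold lower, which turns the direction of *Cdc6*. The *Mcm7* medians were 1.02 CPM in wild-type and 16.7 CPM in mutant libraries. The wild-type median was 1 count in the library labelled wild-type oocyte 5, and 2 of the 7 had none. The 8.79-fold thus rests on a value near the floor and on the added 1 CPM. Intervals near 1 do not show that the genotypes are alike, since they leave out the spread between cells.

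**Figure D5:**
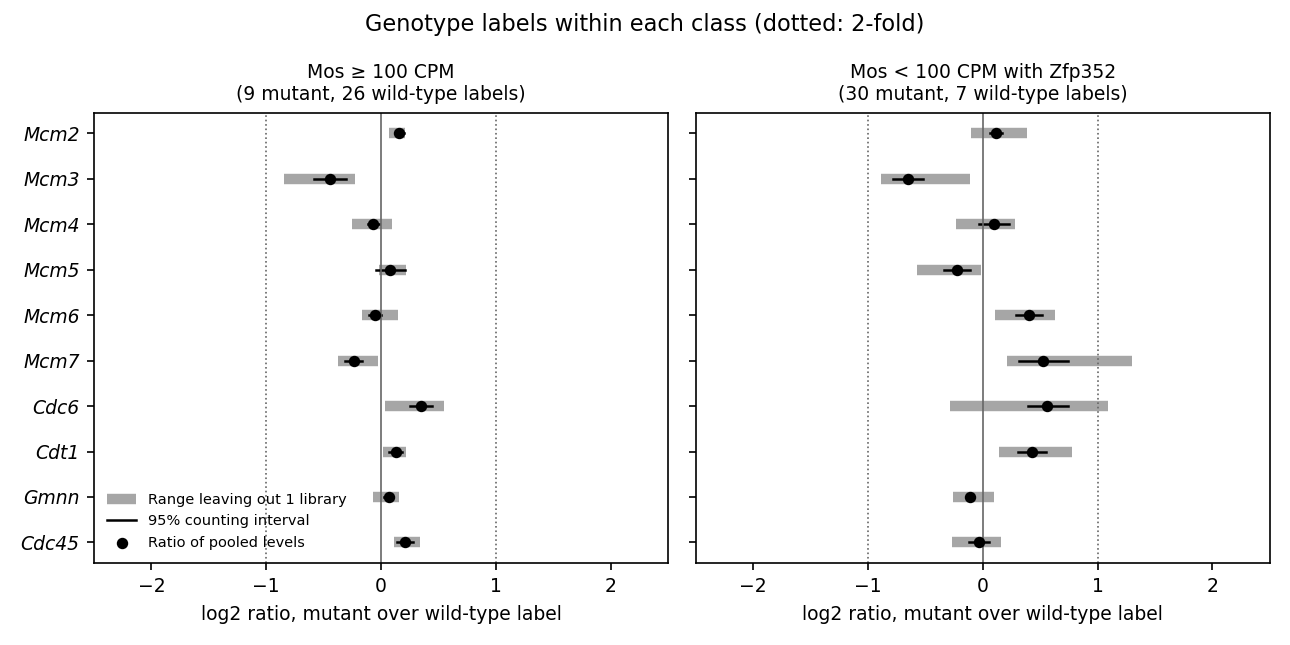
Ratio of pooled CPM, mutant over wild-type label, for each licensing gene within Mos-high libraries (left, 9 and 26 libraries) and within Mos-low libraries (right, 30 and 7 libraries) on a log2 axis, with 95% counting intervals (black) and the range when 1 library is left out (grey). All ratios of pools lie inside the dotted 2-fold lines, and the grey bars of *Mcm7* and *Cdc6* cross one on the right.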

How the data were processed

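Polyadenylated RNA of single cells was captured on oligo-dT beads after the DNA had been separated, copied with template switching, amplified over 15 PCR cycles and made into Nextera XT libraries, per the labels' protocols. Trim Galore 0.4.4, HISAT2 2.1.0, DESeq2 and build GRCm39 are named in the submitters' processing notes; the counting tool and its strand setting are not given in the sources used here. The authors deposited raw counts per gene for 96 libraries. Of these, 79 with at least 100000 counts and 4000 genes were kept, with 162539 to 5762563 counts in Mos-high and 503644 to 3185910 in Mos-low libraries. Entries of 1 symbol were summed (36983 entries, 36935 symbols) and CPM was computed over all counts. No differential test was run, because a group of single cells without named animals is 1 sample; pooled ratios have exact conditional binomial intervals (SciPy 1.17.1), checked on simulated counts. A gene was called at 2-fold or more with at least 10 CPM in a group and a count in 50% of its libraries. Named were the 10 genes, *Mos* and *Zfp352*, and up to 2 genes with the highest and 2 with the lowest ratio past 2-fold in each list. *Cul4b* was named beside *Cul4a*. Also named were the 5 genes most alike to the MCM sum, among genes with a median of at least 10 CPM over all 78 libraries of both classes. Members and lists were chosen with earlier results of these data known. Alternatives used edgeR 4.0.16 TMM and DESeq2 1.42.0 size factors, library medians and means, other filters and class limits, and leaving out each library. Transcript lengths came from GENCODE, promoters from RefSeq (GRCm38.p6). Of the 36935 symbols, 26370 matched RefSeq. The other 17 libraries were left out of all comparisons.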

Additional observations from a re-analysis of the deposited data

Results flagged for a closer look

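Among the 9 Mos-high libraries with a mutant label, *Cdc6* in the library labelled mutant 2-cell 92 was at 115.1 CPM, with the next library at 58.06 CPM and the lowest at 7.77 CPM, a gap wider than the Dixon limit. Across 20 groups of 4 to 10 libraries checked this was the 1 that passed, and chance gives about 1 in 20.

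The library labelled mutant 2-cell 86 had no count of *Mos* or *Zfp352* and entered no class comparison, yet its 10 licensing genes summed to 184.4 CPM. It was among the 21 mutant libraries compared by the 2-cell label. *Gmnn* was at 94.8, *Mcm4* at 52.2, *Mcm7* at 26.1 and *Mcm6* at 11.4 CPM, and the other 6 had 0 counts, which allows up to 1.26 CPM each. Cumulus and granulosa markers made up 0.636% of its counts, and the 8 oocyte markers summed to 8.00 CPM; their part in the licensing signal was not tested.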

How the results depend on the processing

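No paired analysis was possible because the numbers in the labels run from 1 to 96 and no number is shared between groups. In the class comparison *Gmnn*, *Mcm4* and *Mcm7* stayed past 2-fold in 13 of 13 settings, and of the others only *Mcm2* changed direction (5 of 13 settings differed, lowest ratio 0.80). The number of licensing genes at least 2-fold higher in Mos-low libraries was 1 in place of 2 with TMM, DESeq2 size factors, library medians, a *Mos* limit of 50 CPM, limits of 500 and 10 CPM, thinned counts, and without libraries over 0.1% cumulus markers; it was 1 to 2 leaving out 1 library. The number lower was 4 with TMM, 5 with medians and 4 with library means in place of 2, and 3 with DESeq2 size factors, limits of 500 and 10 CPM, thinned counts, at least 8000 genes and without those libraries. By the oocyte label the number lower was 4 with medians, 1 with means, 4 with at least 8000 genes and 1 to 3 leaving out 1 library. By the 2-cell label the number higher was 0 with TMM, 1 with medians, 1 without libraries rich in cumulus markers, 0 with at least 8000 genes, 1 with thinned counts and 0 to 2 leaving out 1 library, and the number lower was 2 with medians and 1 with means, thinned counts or without those libraries. Within Mos-low libraries medians gave 1 higher (*Mcm7*) and 3 lower (*Mcm3*, *Mcm5*, *Cdc6*) genotype calls, and leaving out 1 library gave 0 to 2 higher. The causes were not tested. The 8000-gene limit and the thinning were chosen after seeing the data. TMM moved the median log2 ratio of all genes in the class comparison from -0.08 to -0.32 and DESeq2 size factors to -0.22. Of called genes, 43.0% were higher in the class comparison, and 30.7% with medians and 54.4% without libraries rich in cumulus markers; by the oocyte label 42.4% were, and 31.3% with TMM and 32.4% with medians; by the 2-cell label 40.0% were, and 15.9% with medians and 67.3% without those libraries; within Mos-low libraries 74.6% were, and 54.3% with medians. Counting error is small beside the spread between cells, which the intervals leave out.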

Other observations

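Of the 17 libraries left out for few counts or genes, 9 had a count of a licensing gene. The 2 libraries labelled negative control among them, 71 and 72, held 1857 and 542 counts in all and none of the 10 genes. The 6 other libraries with that label passed the limits, and in them *Gmnn* was at 176 to 317 CPM in the 4 Mos-high and at 384 and 675 CPM in the 2 Mos-low libraries.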
